A study of Mus musculus with 8 samples.

Results

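Peritoneal mesothelial cells of CAV1-/- mice were compared with those of wild-type (WT) mice in cultures that had not been stretched, across every gene of the RNA-seq table. The comparison took 4 of the 8 libraries of the series, chosen by their labels: CAV1-/- static replicates 1 and 2 (animals 1 and 2) against WT static replicates 1 and 2 (animals 3 and 4). The mice were B6.Cg-CAV1tm1mls/J CAV1-/- animals and their WT littermates, for which no age was given in the sources used here. Their cells were freed from the parietal peritoneum with trypsin, grown without stretch to confluence in medium with fetal calf serum, and left static for a further 24 h before RNA extraction. The 4 other libraries came from stretched cultures of the same 4 animals and entered the estimate of the spread and are otherwise shown only beside a result. The deletion was germline, so every cell of the donor mice, and not the mesothelium alone, carried it before the cultures were begun. A replicate number names a different animal in each genotype, and each group held 2 animals, for which an exact permutation test cannot give a p below 0.333.

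Mesothelial cells form the flat epithelium-like sheet that lines the peritoneal cavity, and they keep simple-epithelial keratins and the transcription factor WT1 beside mesenchymal vimentin. They can leave this state by a mesothelial-to-mesenchymal transition, in which epithelial genes are lost and matrix genes gained, and they also secrete chemokines that recruit leukocytes to the cavity. Caveolin-1 is the membrane protein that, with the cavin proteins, shapes caveolae, the flask-like pits of the plasma membrane that buffer membrane tension and host signalling receptors.

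Values are TMM-normalized CPM (reads of a gene scaled to the library total, after the trimmed-mean correction for composition), and differences are log2 fold changes of CAV1-/- over WT on the log2(CPM + 1) scale, with the standard error (SE) of the limma fit. The static libraries held 9777738 to 14237503 reads, so 3 reads corresponded to 0.210 to 0.308 CPM. Of 13687 genes, 13665 reached 1 CPM in at least 2 of the 8 libraries and were tested. A gene is said to have risen or fallen where its adjusted p was under 0.05. Wider descriptions are also used: an unadjusted p of at most 0.05, and groups at least 2-fold apart, meaning that the lowest value of one genotype plus 1 was at least 2 times the highest of the other plus 1. The labels do not say whether any cultures were made side by side on 1 day, so the part of a culture day in the differences between genotypes is not known.

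Cav1 itself, at chr6:17306335-17341452 of GRCm38, measured 764 and 275 CPM in the WT cultures and 34.5 and 18.9 CPM in the CAV1-/- cultures. The genotypes did not overlap, although the WT cultures stood well apart from each other. Its log2 fold change was -4.11 ± 0.62 (SE), with an adjusted p of 0.102, so the targeted gene did not pass the threshold of the test across all genes. The table gives 1 value per gene, and where along Cav1 the remaining reads lay was not analysed here.

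The 2 CAV1-/- cultures differed in a set of leukocyte genes, and so did the 2 WT cultures. In both genotypes the summed level was higher in replicate 1. Lyz2, the lysozyme of macrophages and granulocytes, measured 302 and 27.5 CPM in WT against 3647 and 201 CPM in CAV1-/- replicates 1 and 2. The summed level of 12 leukocyte markers was 435 and 75.6 CPM in WT and 4620 and 306 CPM in CAV1-/-, so replicate 1 lay far above the other 3 cultures and replicate 2 lay below WT replicate 1. None of the 12 was at 0 in any static culture: Ptprc, the pan-leukocyte phosphatase CD45, measured 4.27 and 0.969 against 37.6 and 2.88 CPM. No summed level of the markers of other cells separated the genotypes. The sums were 121 and 58.7 against 63.1 and 55.9 CPM for 7 endothelial markers, 918 and 1824 against 285 and 1697 CPM for 8 fibroblast markers, and 1054 and 546 against 1604 and 690 CPM for 9 smooth muscle and pericyte markers. The 3 skeletal muscle markers measured differed most between the CAV1-/- cultures, at 191 and 29.3 CPM in WT against 687 and 8.22 CPM, nearly all of it the muscle actin Acta1 (190.2 and 27.9 against 685 and 6.37 CPM). The part of these other cell types in the results was not tested. The 4 measured Y-linked genes were read in all 4 static cultures, with summed levels of 203 and 177 CPM in WT against 208 and 168 CPM in CAV1-/- cultures. In bulk RNA, more cells of a type and more RNA per cell cannot be told apart.

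The adjusted test called 10 genes, of which 9 fell in CAV1-/- cells and 1 rose. That was 0.0732% of the 13665 genes tested, 0.00732% for the gene that rose and 0.0659% for those that fell. The genes that fell were Krt8, Lrrn4, Pkhd1l1, Spock2, Dpp4, Aldh1a1, Npr1, Cldn15 and 4833403I15Rik, and the one that rose was Gm7809. At an unadjusted p of at most 0.05 the count was 1117 (8.17%), of which 377 (2.76%) were higher and 740 (5.42%) lower. At least 2-fold apart were 280 genes (2.05%), 72 higher (0.527%) and 208 lower (1.52%), of which 266 were also among the 1117. The median log2 fold change over all genes was -0.01. Over all genes, 2200 (16.1%) were higher in both CAV1-/- cultures than in both WT cultures, 2839 (20.8%) were lower in both, and 8626 (63.1%) overlapped. Lower levels outnumbered higher ones by each description in this fit, but at the unadjusted threshold DESeq2 gave 638 higher and 645 lower, and leaving out both cultures of CAV1-/- replicate 2 gave 861 higher and 847 lower. The adjusted calls rest on treating static and stretched cultures of an animal as separate samples: with the animal as a random effect 2 genes passed, with the 4 static libraries alone none did, although 1011 then had an unadjusted p of at most 0.05. The edgeR quasi-likelihood test on the recovered reads called 2 genes and DESeq2 called 309.

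**Figure D1:**
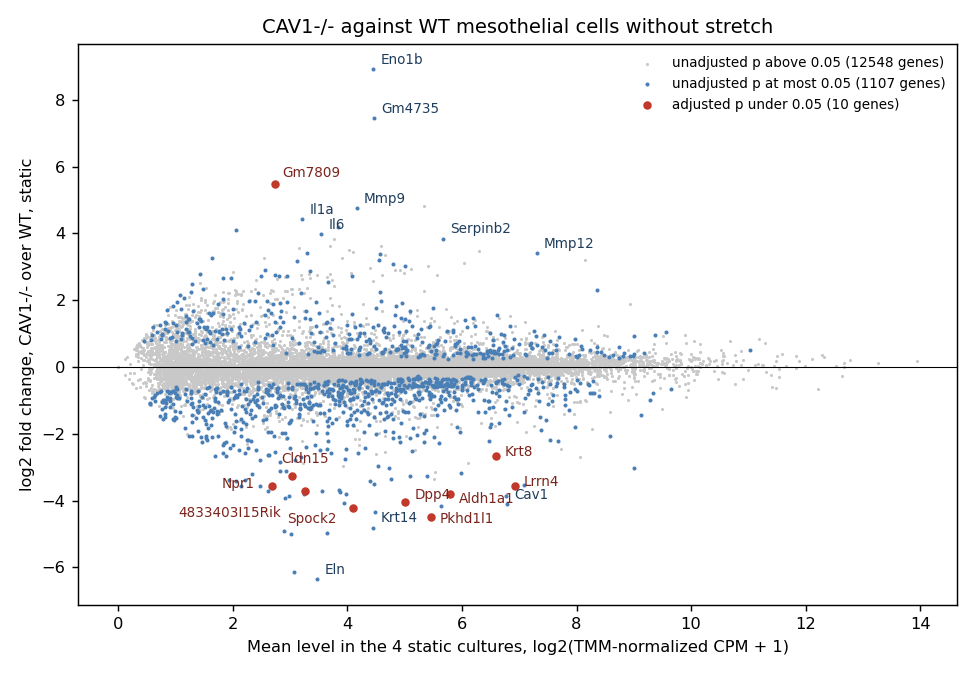
Each of the 13665 tested genes is drawn by its mean level in the 4 static cultures (x axis, log2(CPM + 1)) and its log2 fold change, CAV1-/- over WT (y axis). The 10 genes past the adjusted threshold are red, those at an unadjusted p of at most 0.05 blue and the others grey, and the 9 genes that fell lie between -4.50 and -2.66 on the y axis.

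Of the genes that fell, Lrrn4, Cldn15 and Dpp4 encode proteins of the cell surface or its junctions and Aldh1a1 a retinoid enzyme. A window before an annotated start of each is printed. Npr1 is a cell-surface receptor too, but its window, which holds none of the motifs named below, is not printed. Each line is the 250 bases before the transcription start in RefSeq (GRCm38.p6), on the strand of the gene, with capitals for 4 motifs searched on both strands. GGAATG is bound by TEAD factors, the DNA partners of YAP. AGATAA is read by the GATA family of zinc-finger factors, CAGCTG is an E-box for bHLH factors, and AGGTCA is a nuclear receptor half-site of the kind that retinoid receptors use.
Lrrn4, chr2:132880863-132881112, minus strand: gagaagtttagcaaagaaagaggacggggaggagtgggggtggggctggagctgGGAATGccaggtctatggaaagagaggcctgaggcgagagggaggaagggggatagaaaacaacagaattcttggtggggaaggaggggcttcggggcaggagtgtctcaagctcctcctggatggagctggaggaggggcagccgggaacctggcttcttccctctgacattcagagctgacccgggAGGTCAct
Cldn15, chr5:136967619-136967868, plus strand: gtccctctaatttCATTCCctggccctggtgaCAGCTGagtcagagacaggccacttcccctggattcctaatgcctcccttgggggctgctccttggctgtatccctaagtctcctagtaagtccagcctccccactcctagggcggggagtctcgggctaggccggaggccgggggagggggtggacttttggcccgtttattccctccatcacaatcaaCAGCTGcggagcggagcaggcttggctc
Dpp4, chr2:62412232-62412481, minus strand: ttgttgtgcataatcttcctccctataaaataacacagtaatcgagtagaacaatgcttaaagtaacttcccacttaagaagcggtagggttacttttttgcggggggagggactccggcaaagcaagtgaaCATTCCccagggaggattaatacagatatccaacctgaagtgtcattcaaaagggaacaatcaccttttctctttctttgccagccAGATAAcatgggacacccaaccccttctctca
Aldh1a1, the upstream of its 2 starts, chr19:20492333-20492582, plus strand: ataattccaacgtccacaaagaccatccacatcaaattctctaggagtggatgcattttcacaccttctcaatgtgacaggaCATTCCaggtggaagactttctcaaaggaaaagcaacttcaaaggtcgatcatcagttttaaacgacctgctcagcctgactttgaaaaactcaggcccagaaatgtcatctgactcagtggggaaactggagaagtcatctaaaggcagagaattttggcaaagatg

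The Lrrn4 window holds 1 TEAD motif and 1 half-site, that of Cldn15 1 TEAD motif and 2 E-boxes, that of Dpp4 1 TEAD and 1 GATA motif, and that of Aldh1a1 1 TEAD motif. Annotated starts differ between RefSeq and GENCODE: 29 bases of the Lrrn4 window, its half-site included, lie in a GENCODE exon, and the whole Cldn15 window lies within the GENCODE gene, downstream of a more distal start, with 25 bases in an exon. The Dpp4 window and the printed Aldh1a1 window lie outside the GENCODE genes. Bases just after the Lrrn4 start and the printed Aldh1a1 start were not found in a GENCODE transcript of the gene. Those after the second Aldh1a1 start were found, and the window of that start lies within the GENCODE gene. The window of Krt8, with 1 GATA motif and 1 half-site, has 140 bases in an exon and is not printed. No capital run overlaps another. Among 32851 RefSeq windows of the same length, 12.6% hold the TEAD motif, 9.99% the GATA motif, 13% the E-box and 14% the half-site, so each of these letters is common near transcription starts. Of the 7 called genes with a window in the table, the second start of Aldh1a1 has 1 GATA motif, while the windows of Npr1 and Spock2, and those of Cav1, hold none of the 4. Pkhd1l1, 4833403I15Rik and Gm7809 were not matched. Each of the 4 printed windows holds the TEAD motif, whereas those of Krt8, Npr1, Spock2 and the second Aldh1a1 start do not. The printed windows are thus a selection and do not show how common the motif is among the called genes. A match is a description of the letters and was not tested for binding.

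Keratin 8, a type II keratin that pairs with keratin 18 in simple epithelia, gave the smallest SE of the genes that fell. Krt8 measured 224 and 259 CPM in WT and 33.5 and 41.2 CPM in CAV1-/- cultures, a log2 fold change of -2.66 ± 0.15 (SE; adjusted p = 0.0134). Lrrn4, a leucine-rich-repeat membrane protein used as a mesothelial marker, measured 427 and 405 against 24.8 and 46.7 CPM (-3.57 ± 0.27; adjusted p = 0.0361). For both genes the lowest WT culture was several times the highest CAV1-/- culture. Cldn15, a claudin of tight junctions that forms cation pores, measured 19.5 and 30.2 against 1.32 and 2.06 CPM (-3.25 ± 0.27; adjusted p = 0.0361). Dpp4, the cell-surface peptidase CD26, measured 154 and 111 against 7.09 and 6.79 CPM (-4.05 ± 0.38; adjusted p = 0.0465). The 2 CAV1-/- cultures were nearly equal for Dpp4.

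Pkhd1l1, a large membrane protein named for its likeness to the polycystic kidney and hepatic disease gene, showed the greatest fall among the called genes. It measured 304 and 141 CPM in WT and 8.49 and 7.92 CPM in CAV1-/- cultures (-4.50 ± 0.39; adjusted p = 0.0398). Spock2, a secreted proteoglycan of the testican family, measured 80.0 and 66.4 against 2.97 and 2.88 CPM (-4.24 ± 0.34; adjusted p = 0.0361). In both, the CAV1-/- cultures stood closer to each other than the WT cultures did. Aldh1a1, which oxidises retinaldehyde to retinoic acid, measured 227 and 189 against 12.1 and 15.6 CPM (-3.82 ± 0.32; adjusted p = 0.0361). Npr1, the receptor for atrial natriuretic peptide that makes cGMP, measured 24.9 and 17.9 against 0.495 and 1.34 CPM (-3.57 ± 0.32; adjusted p = 0.0407). The uncharacterised 4833403I15Rik measured 39.2 and 29.1 against 1.07 and 2.36 CPM (-3.72 ± 0.29; adjusted p = 0.0361). None of these genes had overlapping genotypes, and in the stretched cultures all 9 that fell were again lower in both CAV1-/- cultures than in both WT cultures. The stretched cultures came from the same mice and give no independent support. The share of all genes that separated in them is not given here.

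Gm7809, a predicted gene, had no read in either static WT culture and 468 and 470 reads (38.6 and 48.3 CPM) in the CAV1-/- cultures. Set against a floor of 3 reads in each WT library, that was at least 192-fold higher, with an adjusted p of 0.00166. The entry had no position in the annotation used here. Another measured entry bears the same symbol, and its levels are not given here. A second gene without WT reads, Eno1b, had 9472 and 2857 reads (781 and 294 CPM) in CAV1-/- cultures, at least 2380-fold above the same floor, with an adjusted p of 0.0509. Eno1b is nearly identical to Eno1, the glycolytic enolase, so the estimation of counts may divide reads between them. Eno1, added after its values were seen, measured 2847 and 1643 CPM in WT and 2570 and 2003 CPM in CAV1-/- cultures. Its log2 fold change was 0.07 ± 0.45, and its genotypes overlapped. The opposite pattern was seen for the pseudogene Gm21451, with 788 and 1090 reads in WT and none in CAV1-/- cultures, at least 258-fold lower. Gm4735 (0.770 and 0.565 against 399 and 209 CPM) and Gm10182 (0 and 0 against 7.09 and 35.6 CPM) also had little or no signal in WT. Among 262 pseudogenes tested, 12 (4.58%) were at least 2-fold apart, beside 260 of 12745 protein-coding genes (2.04%). Reads of such genes may belong to near-identical copies, so their levels are uncertain.

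**Figure D2:**
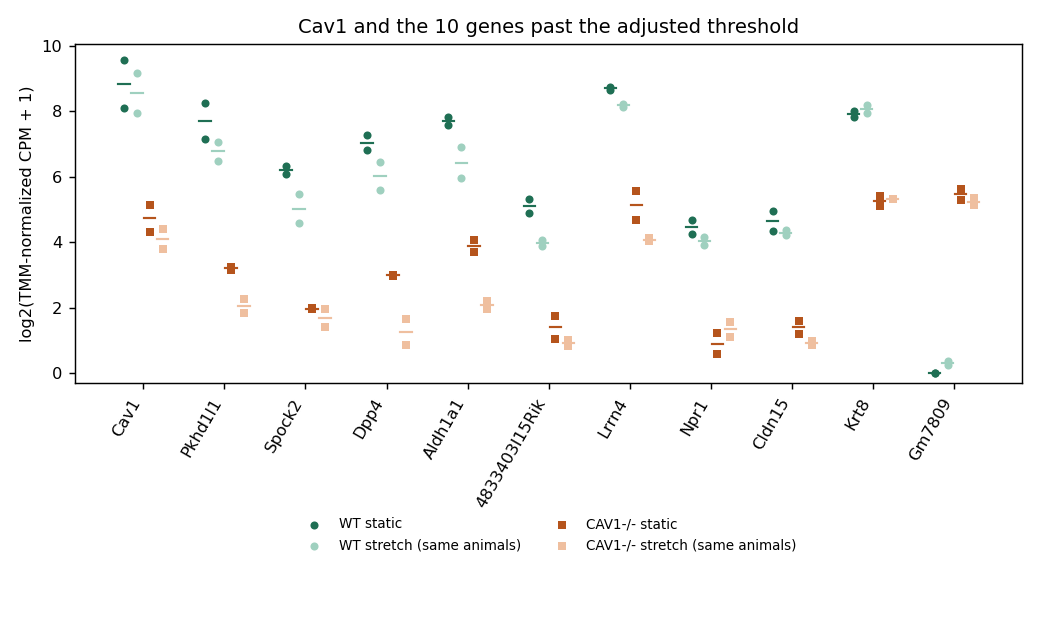
Levels of Cav1 and the 10 genes past the adjusted threshold (y axis, log2(CPM + 1)) are drawn for each culture, with a line at the mean of each group of 2. Dark symbols are static and pale symbols stretched cultures of the same animals, and in each gene the static CAV1-/- squares lie clear of the static WT circles.

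The mesothelial markers were lower as a group. All 15 measured markers had a negative log2 fold change, with a median of -2.47 beside -0.01 over all genes, and 13 were lower in both CAV1-/- cultures than in both WT cultures (20.8% of all genes were). Krt8 and Lrrn4 fell, and 11 of the 15 had an unadjusted p of at most 0.05 in the lower direction, beside 5.42% of all genes. Also 11 were at least 2-fold apart, beside 1.52% of all genes. Summed, the 15 markers measured 4162 and 3997 CPM in WT and 1181 and 1142 CPM in CAV1-/- cultures. Their median difference from the WT mean was -2.35 in CAV1-/- replicate 1 and -2.38 in replicate 2. The part of leukocytes or other cells in these lower levels was not tested.

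Of the keratins in that list, Krt7 measured 328 and 525 against 31.9 and 23.4 CPM (-3.87 ± 0.55; adjusted p = 0.0945), and Krt18, the partner of Krt8, 173 and 181 against 54.6 and 55.3 CPM (-1.67 ± 0.27; adjusted p = 0.114). Krt19 overlapped between the genotypes, at 65.9 and 24.7 against 49.0 and 2.67 CPM. Outside the list, Krt14, a keratin of basal epithelial cells, measured 111 and 119 against 1.40 and 6.07 CPM (-4.81 ± 0.51; adjusted p = 0.0509). Krt7, Krt18 and Krt14 thus separated the genotypes in every culture and did not pass the adjusted test.

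The uroplakins, membrane proteins of urothelium that mesothelium shares, measured 881 and 693 against 155 and 223 CPM for Upk1b and 389 and 545 against 13.2 and 111 CPM for Upk3b. Mesothelin (Msln) measured 581 and 432 against 209 and 38.04 CPM, with CAV1-/- cultures that stood well apart. The cell-surface mucin Muc16 measured 4.90 and 5.01 against 0.165 and 0.720 CPM, and the neuronal-type membrane glycoprotein Gpm6a 119 and 82.3 against 8.24 and 1.65 CPM. None of these 5 passed the adjusted test, though each was lower in both CAV1-/- cultures. With Krt19, Wt1 was the other marker that overlapped, at 130.1 and 112 against 84.97 and 138 CPM, a log2 fold change of -0.15 ± 0.33. Pdpn (podoplanin) differed by -0.44 ± 0.21, with 580 and 481 against 452 and 337 CPM. The lower levels therefore did not extend evenly to every mesothelial gene.

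**Figure D3:**
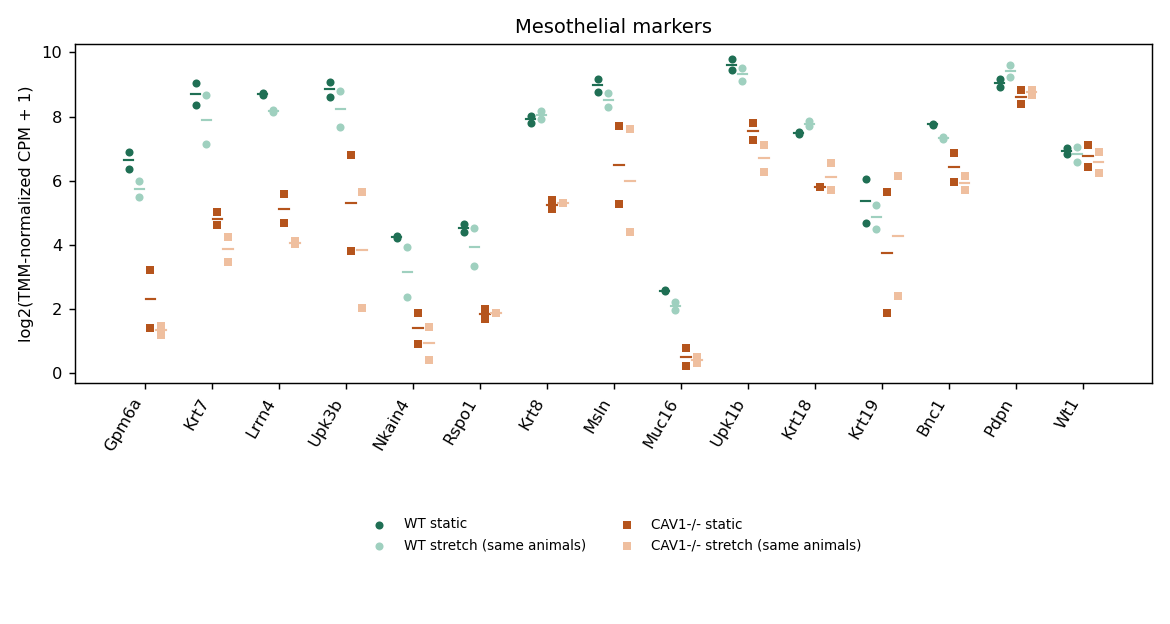
Levels of the 15 measured mesothelial markers (y axis, log2(CPM + 1)) are drawn for each culture, ordered by log2 fold change from Gpm6a on the left to Wt1 on the right. Static CAV1-/- squares lie below static WT circles for 13 of the 15, and the genotypes overlap for Krt19 and Wt1.

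More transcription factors of mesothelium and coelomic epithelium were lower than higher. Of 19 tested, 4 were lower and 1 higher at the unadjusted threshold (21.1% and 5.26%, beside 5.42% and 2.76% of all genes). In all, 8 were lower and 1 higher in both CAV1-/- cultures than in both WT cultures, beside 20.8% and 16.1% of all genes. The genotypes overlapped for 10, and the list median was -0.11. Gata5, a zinc-finger factor of mesoderm and endoderm, measured 17.1 and 11.95 against 0.165 and 0.411 CPM (-3.58 ± 0.37; adjusted p = 0.0509). Tcf21, a bHLH factor of coelomic and visceral mesenchyme, measured 26.2 and 60.5 against 0 and 0.822 CPM (-4.92 ± 0.86; adjusted p = 0.125). Bnc1, the zinc-finger factor basonuclin 1, measured 217 and 214 against 61.2 and 116 CPM, and Tbx2 3.64 and 4.36 against 0.165 and 1.34 CPM. These 4 were lower in both CAV1-/- cultures, and none passed the adjusted test. Tbx18, chosen after its values were seen as the 1 higher member, measured 11.3 and 11.8 against 16.7 and 18.2 CPM.

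Among 31 Hox genes, which record position along the body axis, 6 were lower and 1 higher at the unadjusted threshold (19.4% and 3.23%, beside 5.42% and 2.76% of all genes). Hoxd4 measured 11.3 and 9.53 against 2.80 and 3.80 CPM and Hoxa11 8.18 and 9.12 against 3.21 and 2.67 CPM. Hoxd9, at 5.04 and 3.80 against 1.32 and 1.13 CPM, was also at least 2-fold apart, while Hoxb8, the 1 higher member and chosen after its values were seen, measured 6.23 and 5.57 against 9.31 and 11.6 CPM. The lower count went from 4 without CAV1-/- static replicate 1 to 10 without replicate 2, so it depended on single cultures.

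Genes of the mesenchymal transition did not move together. Of 17 tested, 2 were higher and 1 lower at the unadjusted threshold (11.8% and 5.88%, beside 2.76% and 5.42% of all genes). By their means 12 were higher and 5 lower, with a median of 0.17. That median was 0.38 without CAV1-/- static replicate 1 and -0.17 without replicate 2. It was -0.26 without WT static replicate 1 and 0.09 without replicate 2, so its sign depended on single cultures. Zeb2, a repressor of epithelial genes, measured 84.6 and 77.3 against 170.0 and 107 CPM, and Cd44, the hyaluronan receptor, 396 and 303 against 602 and 452 CPM. S100a4, a calcium-binding protein of fibroblasts, measured 195 and 278 against 101 and 127 CPM. Collagen I, the main fibrillar collagen, overlapped between the genotypes, at 7291 and 12305 against 6884 and 15404 CPM for Col1a1 and 3968 and 8712 against 3874 and 9138 CPM for Col1a2. No member of the 30 collagens had an unadjusted p of at most 0.05.

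Of 18 cadherins, tight-junction and desmosome genes, 2 were lower and none higher at the unadjusted threshold (11.1% lower, beside 5.42% of all genes). Their median was -0.28, or -0.60 over the 11 with a mean of at least 5, and 10 of the 18 were lower in both CAV1-/- cultures, beside 20.8% of all genes. Cldn15 was the gene that fell. The second at the unadjusted threshold was Tjp1, the scaffold ZO-1, which measured 134 and 140 against 113 and 117 CPM (-0.25 ± 0.09; adjusted p = 0.558). In the integrin list of 24, Itga5, the fibronectin receptor subunit, measured 548 and 499 against 1408 and 844 CPM, and Itga2, a collagen receptor subunit, 0.700 and 0.565 against 4.20 and 2.67 CPM. Itgb4, the laminin receptor subunit of hemidesmosomes, measured 19.4 and 11.7 against 3.71 and 1.85 CPM. Itgbl1, an integrin-like secreted protein that the list holds by its name and not as a subunit, measured 14.5 and 26.6 against 2.56 and 0.617 CPM. In all, 2 members were higher and 3 lower at the unadjusted threshold (8.33% and 12.5%, beside 2.76% and 5.42% of all genes). None passed the adjusted test.

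The largest difference downward at the unadjusted threshold was in elastin, the core of elastic fibres. Eln measured 86.8 and 114 CPM in WT, from 1241 and 1410 reads, and 0.247 and 0.206 CPM in CAV1-/- cultures, from 3 and 2 reads. Its log2 fold change was -6.36 ± 1.07, with an adjusted p of 0.122. The stretched WT cultures, which share the estimate of the spread, measured 3.01 and 50.9 CPM. Pdlim3, a muscle LIM-domain protein, measured 30.5 and 64.7 against 0.577 and 0.308 CPM, and Megf6, an EGF-repeat protein, 65.8 and 72.2 against 0.165 and 3.29 CPM. Smpd3, a neutral sphingomyelinase, measured 291 and 149 against 17.6 and 6.48 CPM, and Fam84a 36.7 and 105 against 0.824 and 6.79 CPM. None of these passed the adjusted test, and in each the lowest WT culture lay above the highest CAV1-/- culture.

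Chemokines and cytokines tended upward. Of 22 tested, 7 were higher and 1 lower at the unadjusted threshold (31.8% and 4.55%, beside 2.76% and 5.42% of all genes), with a median of 0.97, and none passed the adjusted test. In all, 12 were higher in both CAV1-/- cultures than in both WT cultures, beside 16.1% of all genes. Il1a, the alarm cytokine interleukin-1 alpha, measured 1.19 and 0.807 against 36.5 and 47.9 CPM (4.43 ± 0.75; adjusted p = 0.122). Il6, the acute-phase cytokine, measured 1.47 and 2.50 against 28.8 and 70.0 CPM (3.97 ± 1.00; adjusted p = 0.295). The neutrophil attractant Cxcl1 measured 12.6 and 2.99 against 73.3 and 78.9 CPM (3.39 ± 1.12; adjusted p = 0.481). In these 3 genes CAV1-/- replicate 2, whose leukocyte sum was 306 CPM beside 4620 CPM in replicate 1 and 75.6 to 435 CPM in WT, was as high as replicate 1 or higher. The part of leukocytes in these levels was not tested. Ccl7, a monocyte attractant, measured 18.3 and 29.9 against 91.6 and 74.0 CPM, and was the closest of the list to the adjusted threshold (1.77 ± 0.27; adjusted p = 0.09998). Cxcl16, a membrane-bound chemokine chosen after its values were seen as the 1 lower member, measured 104 and 81.7 against 32.9 and 42.1 CPM. Without CAV1-/- static replicate 1 the counts were 5 higher and 2 lower, and without replicate 2 they were 8 and 1.

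Matrix proteases showed 2 patterns across the CAV1-/- cultures. Of 25 proteases and their TIMP inhibitors, 4 were higher and 1 lower at the unadjusted threshold (16.0% and 4.00%, beside 2.76% and 5.42% of all genes). Mmp9, the gelatinase B, measured 2.73 and 2.18 against 70.4 and 121 CPM (4.76 ± 0.87; adjusted p = 0.143), and Mmp13, a collagenase, 11.3 and 6.38 against 126 and 50.8 CPM (3.09 ± 0.52; adjusted p = 0.122). Both were well above WT in each CAV1-/- culture. Mmp12, the macrophage elastase, measured 85.2 and 26.5 against 1617 and 162 CPM, and so was highest where Lyz2 was highest. Mmp8 (neutrophil collagenase; 9.65 and 1.53 against 204 and 14.5 CPM) and Mmp3 (stromelysin; 6.16 and 4.60 against 11.95 and 54.3 CPM), both chosen after their values were seen, leaned to opposite cultures. In WT, Mmp12, Mmp8 and Mmp3 were each higher in replicate 1 than in replicate 2. Whether leukocytes supplied the Mmp12 and Mmp8 reads was not tested.

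The same division ran through the other large increases. Ccl9, a myeloid chemokine, measured 4.06 and 1.21 against 209 and 16.5 CPM. Csf2rb2, a cytokine receptor subunit of myeloid cells, measured 3.08 and 1.21 against 95.3 and 9.46 CPM. Both were many times higher in CAV1-/- replicate 1 than in replicate 2, and in WT, too, both were higher in replicate 1, by less. Serpinb2, a protease inhibitor of the plasminogen system, measured 8.46 and 18.0 against 184 and 198 CPM (3.84 ± 0.84; adjusted p = 0.218). The imprinted RNA H19 measured 4.90 and 20.8 against 37.9 and 216 CPM, highest in replicate 2. Of the 72 genes at least 2-fold higher, 12 were at least 2-fold higher in CAV1-/- replicate 1 than in replicate 2, 11 showed the reverse, and 49 lay within 2-fold. Of the 208 lower genes, 173 lay within 2-fold, which the choice of genes favours, since values near 0 are drawn together when 1 is added. In the stretched cultures of the same animals, 58 of the 72 were again higher in both CAV1-/- cultures and 188 of the 208 again lower. The genes were picked for separating these same mice, so the repeat gives no independent support. The share of all genes that separated in the stretched cultures is not given here, so these counts have no background beside them. Leukocyte markers as a list had 2 of 12 higher at the unadjusted threshold (16.7%, beside 2.76% of all genes). Their median difference from the WT mean was 3.68 in CAV1-/- replicate 1 and 0.67 in replicate 2.

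**Figure D4:**
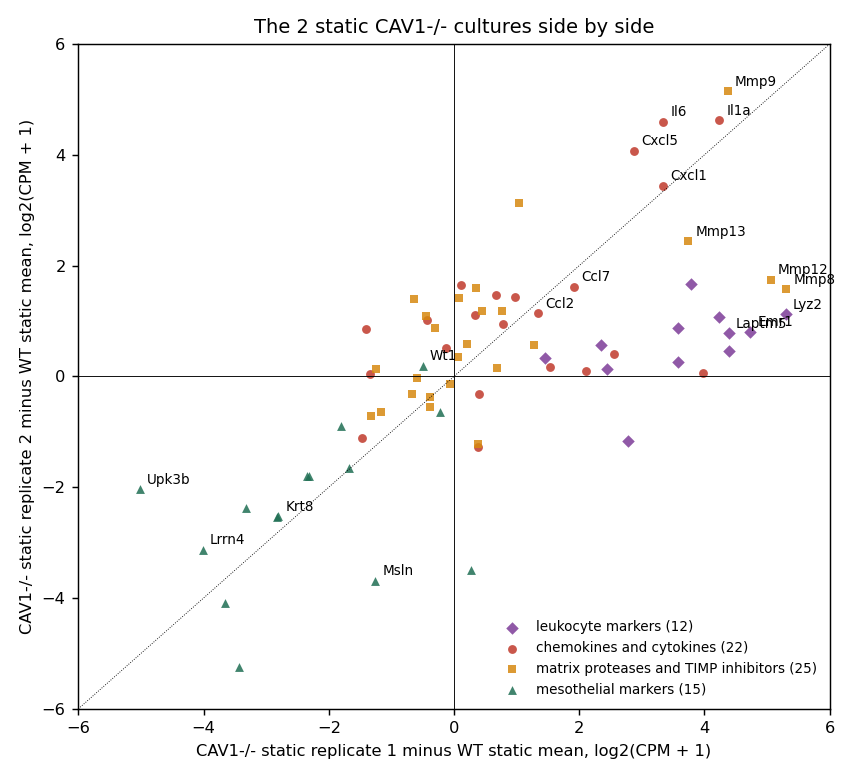
Each point is a gene of 4 lists, drawn by its difference from the static WT mean in CAV1-/- static replicate 1 (x axis) and replicate 2 (y axis), both in log2(CPM + 1) units, with a dotted line where the cultures are equal. Leukocyte markers lie to the right at a median of 3.68 in replicate 1 and 0.67 in replicate 2, whereas mesothelial markers lie low in both, at medians of -2.35 and -2.38.

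Interferon-response and antigen-presentation genes leaned lower. Of 26 tested, 6 were lower and none higher at the unadjusted threshold (23.1%, beside 5.42% of all genes), 13 were lower in both CAV1-/- cultures, beside 20.8% of all genes, and the median was -0.36. Oasl2, an interferon-induced oligoadenylate synthetase-like protein, measured 25.3 and 21.1 against 2.97 and 4.83 CPM (-2.33 ± 0.39; adjusted p = 0.122). Xaf1, an interferon-induced partner of apoptosis inhibitors, measured 5.95 and 7.11 against 1.73 and 2.16 CPM, and Ifih1, a sensor of viral RNA, 15.3 and 13.97 against 8.82 and 3.39 CPM. Interferon and cytokine lists thus had medians of opposite sign in the same cultures, and no gene of either passed the adjusted test.

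Among BMP genes and their Id targets, 5 of 20 were lower and 1 higher at the unadjusted threshold (25% and 5%, beside 5.42% and 2.76% of all genes). Over the whole list, 10 had a higher and 10 a lower mean, and the median was 0.01. The ligands Bmp4 (32.1 and 40.3 against 7.17 and 20.2 CPM) and Bmp6 (21.9 and 13.7 against 7.25 and 5.14 CPM) were lower in both CAV1-/- cultures, as was Id4 (12.4 and 13.4 against 4.78 and 4.93 CPM). Fst, the extracellular inhibitor follistatin, measured 17.4 and 27.5 against 60.2 and 46.7 CPM. In the TGF-beta list of 24, 3 were lower (12.5%) and none higher, with a median of -0.04, among them the inhibitory Smad6 at 61.7 and 45.5 against 25.5 and 26.5 CPM. The YAP/TAZ target signature of 22 genes had 3 lower (13.6%), none higher and a median of -0.07. Of 26 Wnt genes, 3 were lower (11.5%) and none higher, with a median of -0.23: the Wnt inhibitor Sfrp2 measured 19.5 and 43.8 against 0.0824 and 2.98 CPM, and the Wnt enhancer Rspo1 24.1 and 20.1 against 2.23 and 2.98 CPM. No member of these 4 lists passed the adjusted test.

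Among 20 retinoid genes, 12 overlapped between the genotypes, near the 63.1% of all genes. At the unadjusted threshold 2 were higher and 1, Aldh1a1, lower (10% and 5%, beside 2.76% and 5.42% of all genes). Crabp1, a cytosolic carrier of retinoic acid, measured 1.40 and 10.4 against 31.0 and 28.1 CPM, and the receptor Rarb 0.979 and 0.888 against 2.88 and 3.70 CPM. In the cGMP pathway, soluble guanylate cyclase subunit Gucy1a3 measured 35.6 and 12.8 against 2.14 and 1.13 CPM, and the cGMP-dependent kinase Prkg1 20.6 and 26.1 against 7.83 and 9.05 CPM. With Npr1 these made 3 lower of 12 (25%, beside 5.42% of all genes) in a list whose median was -0.08. Nos2, the inducible nitric oxide synthase, measured 0 and 0.0807 against 5.27 and 1.13 CPM, highest in CAV1-/- replicate 1. Which cells supplied the Nos2 reads was not tested. Of the cGMP genes Npr1 alone passed the adjusted test.

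Other caveolar genes differed less than Cav1. Cav2, whose protein partners with caveolin-1, measured 44.98 and 15.8 against 62.3 and 14.3 CPM (0.16 ± 0.97). The cavins Ptrf (847 and 635 against 636 and 477 CPM), Sdpr (221 and 217 against 191 and 183 CPM) and Prkcdbp (101 and 75.8 against 77.6 and 59.9 CPM) differed by -0.41 ± 0.24, -0.23 ± 0.20 and -0.36 ± 0.21. Pacsin2, which bends the caveolar neck, measured 199 and 189 against 145 and 109 CPM. It was the only other of the 11 caveolar genes at the unadjusted threshold. With Cav1 this made 2 of 11 lower (18.2%, beside 5.42% of all genes). Murc, the muscle cavin, was at 0.979 and 1.37 against 1.15 and 1.65 CPM, and the Ehd and Pacsin3 genes lay between -0.22 and 0.10. Of the 22 genes tested within 5 Mb of Cav1, 2 were higher and 1 lower at the unadjusted threshold. Those shares were 9.09% and 4.55%, beside 2.76% and 5.42% of all genes. The higher ones included Tes, a focal-adhesion LIM protein, at 135 and 113 against 262 and 222 CPM.

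No member of 34 cell-cycle genes or 82 cytosolic ribosomal proteins had an unadjusted p of at most 0.05. Ribosomal proteins nevertheless leaned one way, with 57 of 82 higher in both CAV1-/- cultures, beside 16.1% of all genes, and a median of 0.18. Respiratory-chain genes had 2 of 79 higher (2.53%, beside 2.76% of all genes), with Ndufa7 at 52.0 and 48.1 against 64.4 and 64.3 CPM. Cholesterol genes had 1 of 27 lower (3.70%, beside 5.42% of all genes). Fatty acid genes had 2 of 27 in each direction (7.41%, beside 2.76% of all genes higher and 5.42% lower). Among them was Angptl4, an inhibitor of lipoprotein lipase, at 65.4 and 73.5 against 111 and 135 CPM. Of 18 imprinted growth genes, 2 were higher (11.1%, beside 2.76% of all genes). These were H19 and the cell-cycle inhibitor Cdkn1c (1.26 and 3.71 against 7.42 and 5.86 CPM). The 16 complement and acute-phase genes also had no member at the unadjusted threshold, but their median was -0.62, and Saa3, an acute-phase apolipoprotein, measured 513 and 559 against 192 and 3096 CPM. In each of these lists the adjusted test called no gene.

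**Figure D5:**
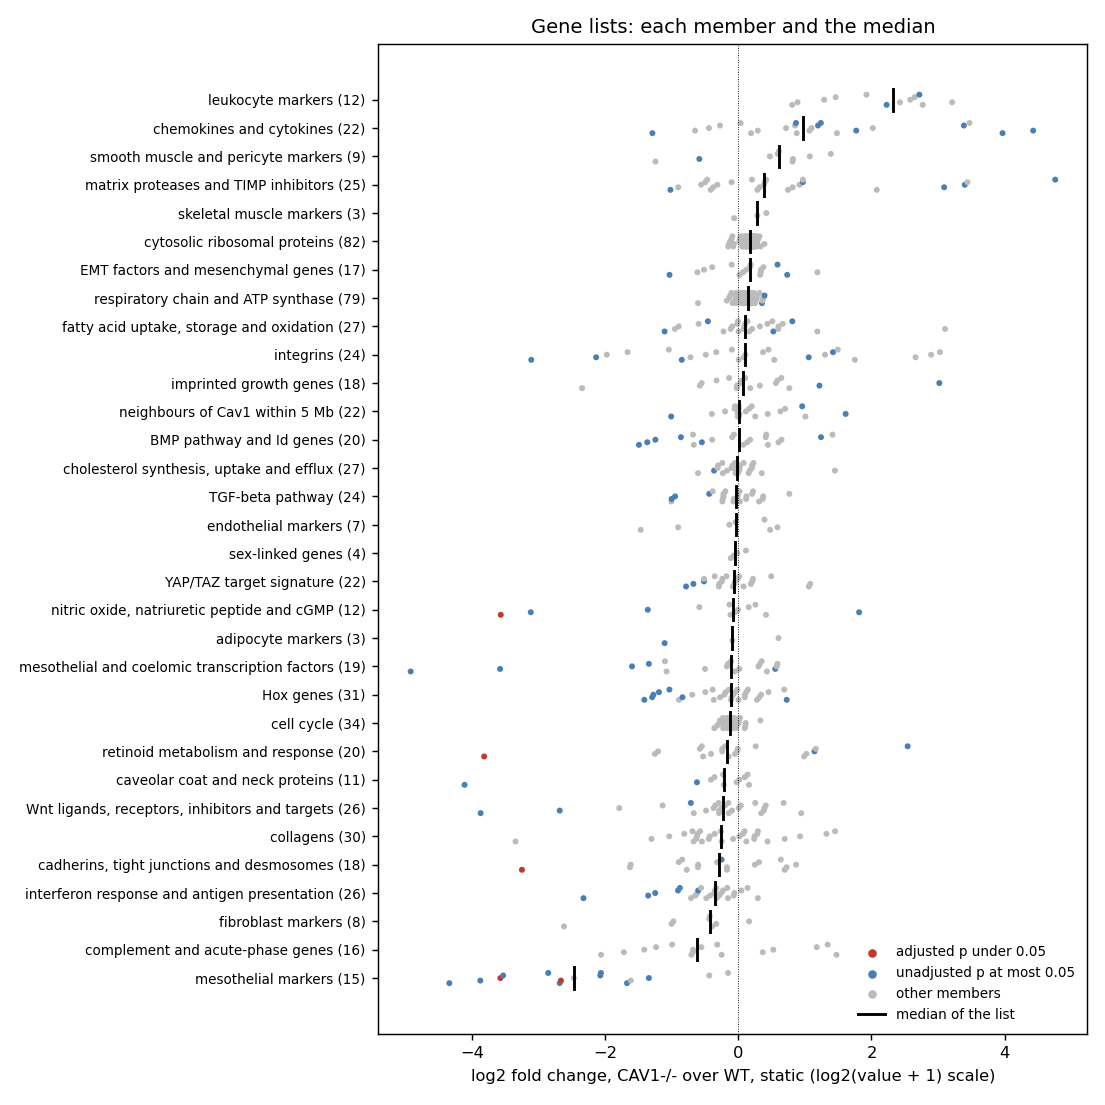
Each point is a tested member of a gene list, placed by its log2 fold change, CAV1-/- over WT (x axis), with the list and its number of tested members on the y axis and a bar at the median. Mesothelial markers have the lowest median (-2.47) and leukocyte markers the highest (2.33), and the ribosomal and cell-cycle lists stay between -0.36 and 0.39.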

How the data were processed

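Peritoneal mesothelial cells were sequenced from static and stretched cultures of 2 CAV1-/- and 2 WT mice, as single reads of 61 bases from poly-A RNA. The authors trimmed adapters with Cutadapt, estimated counts per gene with RSEM against GRCm38 transcripts, and normalized them by TMM with edgeR. The deposited values, handled as a signal, are TMM-normalized CPM: in each library 100% of values were whole multiples, within 0.01, of 1 read, so read numbers were recovered (9777738 to 14237503 per static library). Floors of 3 reads cover counting error only, whereas the SE values measure the spread between cultures.

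Values were put on the log2(value + 1) scale. Genes at 1 or more in at least 2 libraries were tested with limma 3.58.1 in R 4.3.3, two-sided, with 1 mean per group over all 8 libraries (4 residual degrees of freedom), an intensity trend and Benjamini-Hochberg adjustment over 13665 genes. Replicates were separate animals, and the p-values measure the spread between these few cultures. The edgeR 4.0.16 and DESeq2 1.42.0 fits were alternatives.

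The text names caveolar genes, every gene past the adjusted threshold, the 12 largest rises and falls among genes of an unadjusted p of at most 0.05, non-overlapping groups and a mean of at least 5, and up to 4 members per list at that threshold, or the 2 highest where under 2 passed; cell type markers may all be named. Members and lists were chosen with earlier results of these data known. Lists are described by counts and medians. Positions come from GENCODE (GRCm38) and promoters from RefSeq. The scripts were tested on simulated data.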

Additional observations from a re-analysis of the deposited data

How the results depend on the processing

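The count of 10 genes past the adjusted threshold moved with the fit. It was 309 with DESeq2 and 2 with edgeR on the recovered reads, 6 without the intensity trend, 2 with the animal as a random effect and 0 with the 4 static libraries alone. Leaving out single cultures or single animals gave 0 to 5 genes, and 598 to 1708 at the unadjusted threshold beside 1117. That lowest value was reached without WT static replicate 1, and the highest without both cultures of CAV1-/- replicate 2; the count was 675 without both cultures of WT replicate 1. The lone culture of a genotype was then assumed to vary like the other groups. Replicate numbers do not mark shared animals across genotypes: with a replicate block in the fit, the adjusted count was 14 and the unadjusted count 2012, and with 1 block shared by static and stretched libraries, chosen after seeing the data, 246 and 2300. Deviations of same-numbered WT and CAV1-/- static cultures correlated at 0.522 over genes. At the unadjusted threshold the higher and lower counts were 638 and 645 with DESeq2 and 861 and 847 without both cultures of CAV1-/- replicate 2, beside 377 and 740. The cause of these moves was not tested. Of 3429 values of named genes under the alternatives, 3311 kept their sign and 118 did not. Of 704 list medians, 658 stayed within the spread between cultures and 46 moved. Many of these outcomes were fixed in advance. Dropping the intensity trend, adding the random effect or a block, or fitting the 4 static libraries alone changes only the spread, not the fold change. Leaving out both cultures of an animal gives the same fold changes as leaving out its static culture. The 2 counts are therefore no measure of robustness.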
